A study of Mus musculus with 18 samples.

Results

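The interleukins are small secreted proteins with which epithelial and immune cells signal to each other. In the RNA sequencing table of 6 SKH1-E hairless mice, 64 of 14521 named genes had a symbol that opens with Il and a number, and all 64 were taken as members. They comprised 23 ligands, 34 receptor chains, 6 antagonists or decoy receptors and 1 enzyme, Il4i1, which oxidises aromatic amino acids. The mice were female littermates of an outbred stock, irradiated with simulated sunlight from 3 months of age, and no unirradiated skin was analysed here. Chronically UV-exposed skin without a lesion (CHR), a benign epidermal tumour called papilloma (PAP) and an invasive squamous cell carcinoma (SCC) were taken from each animal. This made 18 libraries with n = 6 per group. All 3 groups had received the UV course, so CHR is exposed skin and not a baseline. The lesions were whole pieces of tissue, in which tumour cells, stroma and leukocytes were sequenced together. The libraries held between 15.4 M and 20.98 M recovered reads, with a median of 18.9 M.

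A ligand of these families binds a receptor chain of its own and a signalling chain that is often shared. IL-1, IL-36, IL-18 and IL-33 belong to 1 superfamily that signals through MyD88 and IRAK kinases to NF-kB. IL-17 ligands act through IL-17 receptor chains that recruit the adaptor encoded by Traf3ip2. The IL-4/IL-13, IL-6, IL-20/IL-10, IL-12/IL-23 and common gamma chain families use Janus kinases and STAT factors. In skin, keratinocytes make IL-1, IL-36, IL-33, IL-19, IL-20 and IL-24 and also carry the receptors for IL-17, IL-22 and IL-4/IL-13, whereas receptors such as those for IL-7, IL-2 and IL-10 are found mainly on leukocytes. Of the members, 12 belonged to the IL-1/IL-36 group, 6 to IL-18/IL-33, 6 to IL-17, 4 to IL-4/IL-13, 8 to IL-6, 10 to IL-20/IL-10, 5 to IL-12/IL-23 and 9 to the common gamma chain group. Il3ra, Il16, Il34 and Il4i1 made up the rest. The table uses older symbols for the IL-36 genes, in which Il1f6, Il1f8 and Il1f9 encode IL-36 alpha, beta and gamma and Il1f5 encodes the IL-36 receptor antagonist.

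The stretch of 250 bases before the annotated start of transcription is shown for 4 members. They were picked from those whose transcripts moved most or rose and for which the RefSeq promoter table (GRCm38.p6) held an entry. It held 62 starts for 49 of the 64 members. The upper-case letters mark TGANTCA, the core bound by AP-1, and TTCNNNGAA, the core bound by STAT factors. The Il19 stretch, chr1:130940116-130940365 on the minus strand, held a STAT-type match that starts at position -225. The table held a pair of starts for Il11. The stretch shown, chr7:4778142-4778391 on the minus strand, held an AP-1-type match at -98, and the stretch before the other start, chr7:4782858-4783107, held neither motif. The Il7r stretch, chr15:9529877-9530126 on the minus strand, held a STAT-type match at -142. The first Il33 start, chr19:29924863-29925112 on the plus strand, held neither motif. The risers Il4ra, Il13ra1, Il17re and Il17rc also had entries, which are not shown and held neither motif. Il16, which fell, had entries that are not shown either. Of these, the stretch chr7:83735540-83735789 held an AP-1-type match at -18, and the others held neither motif.
Il19: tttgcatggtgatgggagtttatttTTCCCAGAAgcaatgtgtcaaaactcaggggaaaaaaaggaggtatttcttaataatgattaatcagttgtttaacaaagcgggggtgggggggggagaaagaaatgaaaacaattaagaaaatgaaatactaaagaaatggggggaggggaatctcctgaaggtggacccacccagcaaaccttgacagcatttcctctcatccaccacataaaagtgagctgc
Il11: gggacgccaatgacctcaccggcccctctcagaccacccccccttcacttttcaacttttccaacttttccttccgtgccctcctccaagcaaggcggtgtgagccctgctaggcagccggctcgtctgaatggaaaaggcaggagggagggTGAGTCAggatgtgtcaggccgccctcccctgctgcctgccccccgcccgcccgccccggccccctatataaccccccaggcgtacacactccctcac
Il7r: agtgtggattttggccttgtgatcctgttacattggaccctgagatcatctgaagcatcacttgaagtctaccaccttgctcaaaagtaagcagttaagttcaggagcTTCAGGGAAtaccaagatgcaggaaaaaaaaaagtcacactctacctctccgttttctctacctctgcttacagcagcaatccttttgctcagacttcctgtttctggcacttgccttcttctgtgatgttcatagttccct
Il33: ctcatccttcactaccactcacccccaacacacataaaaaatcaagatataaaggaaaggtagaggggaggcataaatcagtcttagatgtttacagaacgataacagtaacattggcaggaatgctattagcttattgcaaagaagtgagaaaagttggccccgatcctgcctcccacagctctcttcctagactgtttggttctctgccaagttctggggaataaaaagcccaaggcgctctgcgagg
Both strands were searched, matches of different motifs were allowed to overlap, and a match is a run of letters, not a measured binding site. TGANTCA stood in 11 of the 62 stretches (17.7%) and in 6.7% of all 32851 RefSeq stretches of the same length. TTCNNNGAA stood in 8 of 62 (12.9%) and in 7.0% of all. An NF-kB-type core, GGG and CC spaced 5 bases apart, stood in 25 of 62 (40.3%) and in 45.8% of all. The AP-1-type matches lay before Il11, Il13ra2, Il15ra, Il16, Il17rb, Il1a, Il1f8, Il1rn, Il20ra, Il22ra1 and Il6, a set that held members that rose, members that fell and members that did not pass.

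More members were lower than higher in both kinds of lesion. In the PAP versus CHR comparison, 34 of 64 members passed an adjusted p of 0.05 in limma on log2(deposited value + 1), with 8 higher and 26 lower in PAP. This fit of all libraries, without a block for mouse, is the one meant wherever a member is said to pass or not, unless another setting is named. Of all genes tested, 51.5% passed, 22.8% higher and 28.7% lower, against 12.5% and 40.6% of the members. The median log2 fold change was -0.46 over the members and 0.0 over all genes. In SCC versus CHR, 26 members passed (36.5% of all genes), with 3 higher and 23 lower (4.69% and 35.9% of the members, against 15.1% and 21.4% of all genes). The median was -0.33 over the members and -0.02 over all genes. In SCC versus PAP, 4 members passed, all of them higher in SCC (5.58% of all genes passed, 4.99% higher and 0.592% lower). The first 2 of these comparisons share the CHR libraries. Counting members whose groups did not overlap at all, 20 were lower and 1 was higher in PAP than in CHR (19.3% and 14.4% of all genes), and 8 were lower and 1 was higher in SCC than in CHR (11.3% and 8.57% of all genes).

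The 8 members that rose in PAP were the ligands Il24, Il19, Il33 and Il11 and the receptor chains Il4ra, Il13ra1, Il17re and Il17rc. The ligands Il24, Il19 and Il11 were also the 3 that rose in SCC. Of 34 receptor chains, 18 fell and 4 rose in PAP (52.9% and 11.8%, against 28.7% lower and 22.8% higher over all genes). Of 23 ligands, 7 fell and 4 rose (30.4% and 17.4%), which is near the shares over all genes. In SCC, 14 receptor chains fell and 0 rose (41.2% lower, against 21.4% of all genes). No difference between the roles was tested. The same 18 members were lower in both kinds of lesion with no call between them, and 2 more, Il16 and Il27ra, were lower in both and higher in SCC than in PAP. No call was made in any comparison for 27 members. The shares of all genes with these patterns were not counted, and both comparisons with CHR use the same CHR libraries. The members together took 0.338% to 0.406% of the reads of a library in CHR (median 0.382%), 0.275% to 0.418% in PAP (median 0.374%) and 0.257% to 0.399% in SCC (median 0.332%), so their summed share overlapped between the groups.

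**Figure D1:**
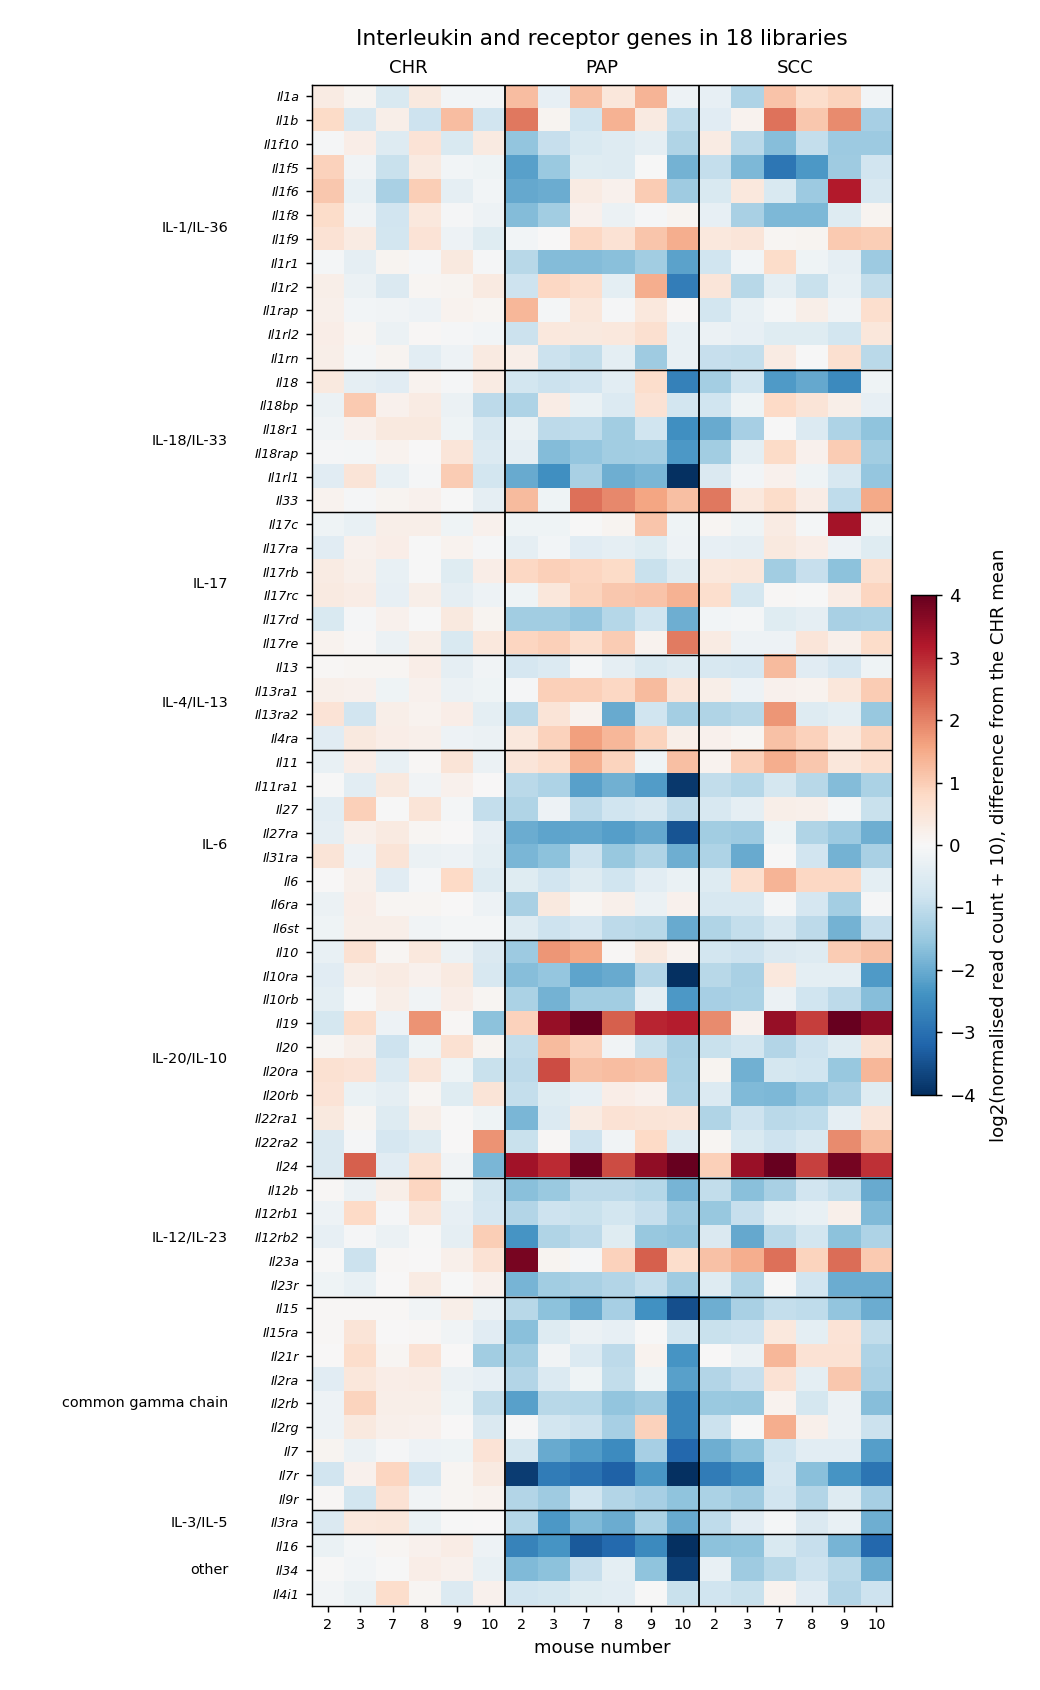
Each row is 1 of the 64 members and each column 1 of 18 libraries (mouse number on the x axis, group on top). Colour gives log2(normalised read count + 10) as a difference from the CHR mean, clipped at 4. Il24 and Il19 are red in most PAP and SCC columns, Il7r and Il16 are blue there, and the PAP of mouse 10 holds the darkest blue for several receptor chains.

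**Figure D2:**
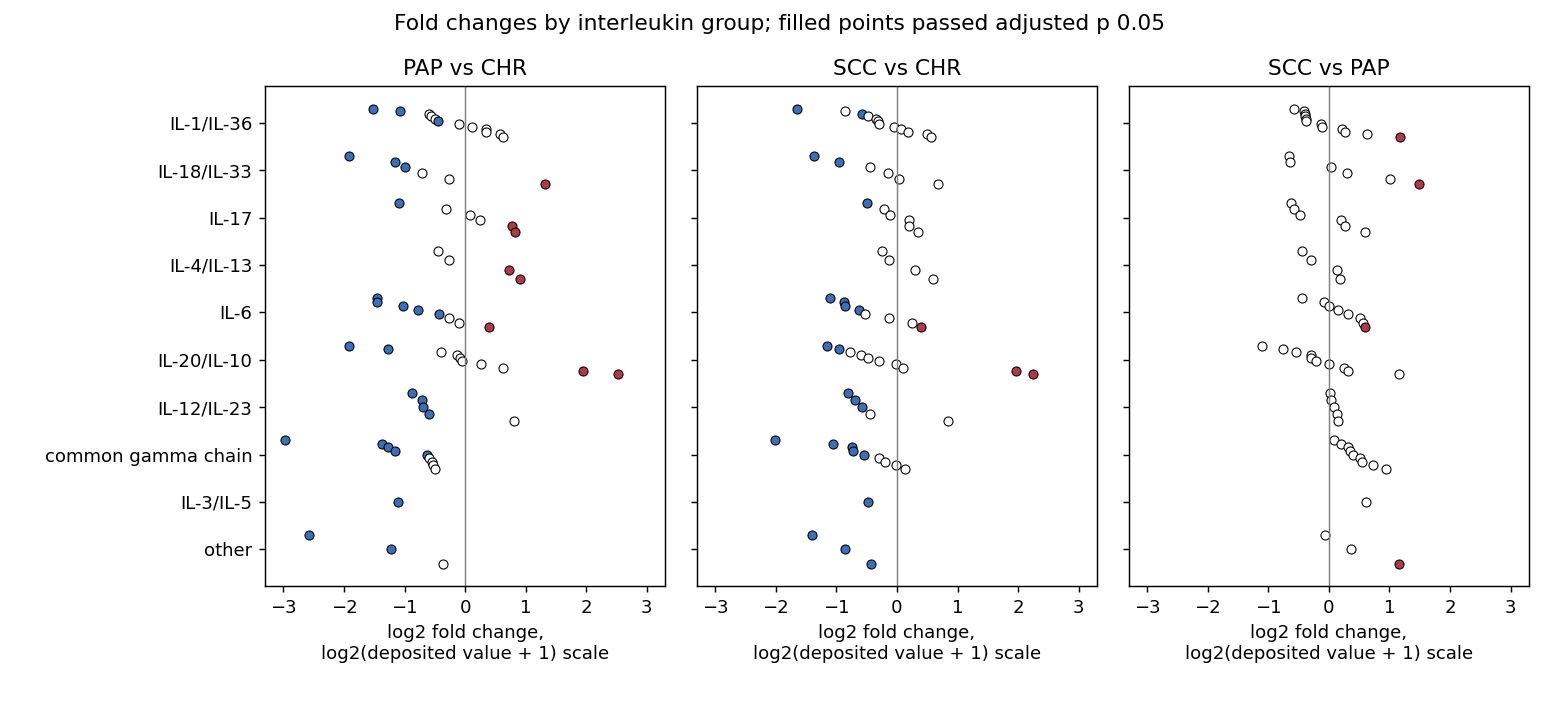
The log2 fold change of each member on the log2(deposited value + 1) scale (x axis) is shown by interleukin group (y axis), 1 panel per comparison. Filled points passed an adjusted p of 0.05 (red higher, blue lower). In PAP versus CHR the 9 common gamma chain members all lie below 0, and in SCC versus PAP they all lie above 0.

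Most markers of T cells, macrophages, mast cells and dendritic cells moved in the same direction as the members that fell, whereas few neutrophil markers passed. Of 12 T cell markers, 11 were lower in PAP and 8 in SCC than in CHR, and their summed normalised read count was 3093 to 4940 in CHR, 370.2 to 3686 in PAP and 1385 to 3883 in SCC. Of 11 macrophage markers in the table, 10 were lower in PAP, 6 were lower in SCC and 7 were higher in SCC than in PAP. Their summed count was 48352 to 75651 in CHR, 2265 to 11079 in PAP and 6539 to 74598 in SCC. Of 8 mast cell markers, 7 were lower in PAP and 6 in SCC, with summed counts of 6752 to 12419, 261 to 2572 and 1813 to 4459 in CHR, PAP and SCC. Of 7 dendritic cell markers, 6 were lower in each kind of lesion. Of 8 neutrophil markers in the table, 2 were lower in PAP and 1 in SCC, where 5 of 8 had positive log2 fold changes. Their summed count was 689 to 1236 in CHR, 198 to 822 in PAP and 376 to 2018 in SCC. No marker of these 5 lists was at 0 in all libraries. Of 10 keratinocyte markers, 8 were higher and 1 lower in PAP, with summed counts of 434463 to 852825 in CHR, 677570.1 to 1221085 in PAP and 229373 to 788147 in SCC. All 10 skeletal muscle markers were lower in each lesion (median log2 fold change -6.78 in PAP and -3.14 in SCC). So were 7 of 8 fat markers (-4.11 and -3.26) and all 6 sebaceous gland markers in the table (-2.22 and -2.16). Of 8 fibroblast markers, 5 fell in PAP (median -2.74) and 2 in SCC (median -0.78). Of 6 endothelial markers, 3 fell in PAP, and 1 fell and 1 rose in SCC. In tissue pieces of this kind, fewer cells of a type and less RNA per cell cannot be told apart, and the part of these cell types in the members' results was not tested.

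In the IL-1/IL-36 group, which holds the alarm signals of the epidermis and their receptors, 3 of 12 members passed in PAP versus CHR, all lower. These 25.0% compare with 51.5% of all genes called and 28.7% called lower, so the share that fell was near that over all genes. The median was -0.27, against 0.0 over all genes. Il1r1, the receptor chain that signals for IL-1 alpha and IL-1 beta, ranged from 1435 to 2423 normalised reads in CHR (median 1802), from 411 to 851 in PAP (median 561) and from 665 to 3061 in SCC (median 1538). No PAP library reached the lowest CHR library, whereas the SCC libraries spanned both. The mean was 3.08-fold lower in PAP than in CHR (log2 fold change -1.52 ± 0.25, SE, n = 6 per group, adjusted p = 7.79e-05, lower in 6 of 6 mice).

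Il1f5, which blocks the IL-36 receptor, was the most abundant member per kilobase of exon in CHR. It ranged from 4012 to 14020 normalised reads in CHR (median 6810.3), from 1622 to 7343 in PAP (median 3873) and from 988 to 4369 in SCC (median 2448). The groups overlapped in both comparisons. In SCC it was 3.07-fold lower than in CHR (-1.65 ± 0.40, adjusted p = 0.00412, lower in 6 of 6 mice). In PAP it was 1.99-fold lower (-1.08 ± 0.40, adjusted p = 0.0321, lower in 4 of 6 mice). The PAP call was lost with mouse as a block (adjusted p = 0.0505) and without mouse 2, 3, 8 or 10 (adjusted p = 0.0586 to 0.165). Il1f10, an IL-1 family cytokine (IL-38) of which few reads were found, ranged from 11.3 to 37.4 in CHR, from 0.849 to 15.6 in PAP and from 0.0 to 31.2 in SCC. It fell by 0.44 in PAP (adjusted p = 0.044) and by 0.57 in SCC (adjusted p = 0.017) on the log2 scale. Its PAP call was lost with the block (adjusted p = 0.0638) and without mouse 2, 3, 8 or 10, the sign of that difference turned under quantile normalization, and leaving out mouse 3, 8 or 10 ended the call in SCC (adjusted p = 0.059 to 0.0701), as did quantile normalization (adjusted p = 0.191).

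No agonist of the group passed in the fit of all libraries, and calls for Il1f9 and Il1f8 came with the omission of single mice. Il1a, IL-1 alpha, ranged from 310.2 to 625 in CHR, from 379 to 1240.3 in PAP and from 195 to 1063 in SCC, with log2 fold changes against CHR of 0.57 ± 0.34 (adjusted p = 0.171) and 0.18 ± 0.34 (adjusted p = 0.719). Il1b, IL-1 beta, spanned 503 to 2108 in CHR, 439 to 3912 in PAP and 350.0 to 4020 in SCC, so that libraries of the same group differed more than the groups did. The adjusted p of Il1b was 0.644 in PAP and 0.476 in SCC. Il1f9, IL-36 gamma, was the most abundant member per kilobase in SCC (a mean of 2104 normalised reads per kilobase, against 577 for Il1f5). It ranged from 1405 to 3460 normalised reads in CHR, from 2142 to 6345 in PAP and from 2440.4 to 4783 in SCC (adjusted p = 0.0706 and 0.169 against CHR). In PAP, Il1f9 passed as higher without mouse 2 (0.88, adjusted p = 0.0219) or mouse 3 (0.81, adjusted p = 0.0475). Il1f6, IL-36 alpha, reached 7217 in the SCC of mouse 9 and lay between 282 and 1076 in the other SCC libraries (adjusted p = 0.951 in SCC). Il1f8, IL-36 beta, had log2 fold changes of -0.49 in PAP and -0.86 in SCC (adjusted p = 0.267 and 0.067). Its SCC difference passed without mouse 10 (-1.09, adjusted p = 0.0343) and without the SCC of mouse 10 alone (-1.05, adjusted p = 0.0288).

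The ratio of Il1f5 reads to the summed reads of Il1f6, Il1f8 and Il1f9 was computed in each library after these values had been seen, and is given without a test. It was 1.46 to 1.995 in CHR (median 1.76), 0.251 to 0.956 in PAP (median 0.854) and 0.218 to 0.836 in SCC (median 0.460). The lowest CHR library lay above the highest library of either lesion. The same ratio for IL-1, of the receptor antagonist Il1rn to the summed reads of Il1a and Il1b, was 0.687 to 2.68 in CHR, 0.312 to 1.925 in PAP and 0.501 to 1.195 in SCC, and overlapped between all groups. Il1rn itself had log2 fold changes of -0.59 in PAP and -0.32 in SCC (adjusted p = 0.103 and 0.418), and passed in PAP in the fit of the 2 groups alone (adjusted p = 0.0467). Il1r2, a decoy receptor that binds IL-1 without signalling, the shared chain Il1rap and the IL-36 receptor Il1rl2 passed in no comparison. Il1rap shares 552 exonic bases with an antisense gene and its counts are therefore uncertain.

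**Figure D3:**
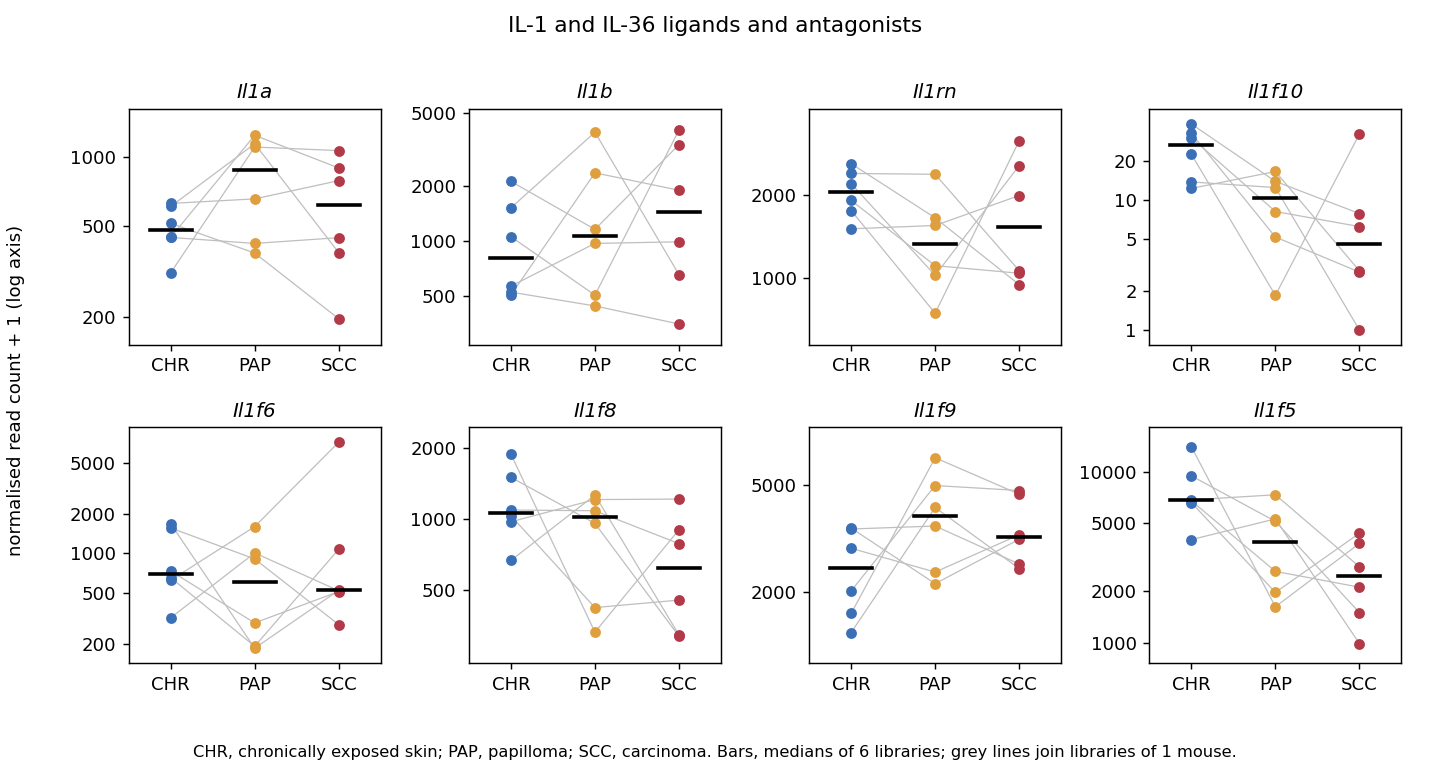
Normalised read counts plus 1 (log y axis) of IL-1 and IL-36 ligands and antagonists in CHR, PAP and SCC (x axis), with 1 point per library, bars at medians of 6 libraries and grey lines joining the libraries of 1 mouse. Every gene shown overlaps between CHR and the lesions. Il1f5 and Il1f10 have lower medians in the lesions and passed, while Il1a, Il1b, Il1rn, Il1f6, Il1f8 and Il1f9 did not pass in the fit of all libraries.

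These genes lie in blocks in the GENCODE M21 annotation of GRCm38. The IL-36 genes, Il1f5, Il1f10 and Il1rn are neighbours on chromosome 2, from the start of Il1f8 at 24153161 to the end of Il1rn at 24351494. Il1r2, Il1r1, Il1rl2, Il1rl1, Il18r1 and Il18rap follow each other on chromosome 1 from 40074079 to 40551705. Of these 6 neighbouring receptor genes, Il1r1, Il1rl1, Il18r1 and Il18rap were lower in PAP, and the decoy Il1r2 and the IL-36 receptor Il1rl2 did not pass.

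In the IL-18/IL-33 group, Il33 rose in PAP while its receptor Il1rl1 fell. IL-33 is an alarmin kept in the nucleus of keratinocytes and stromal cells. Il33 ranged from 1479 to 2124 in CHR (median 1949), from 1663 to 8741 in PAP (median 5079.9) and from 919 to 8179 in SCC (median 2839.5). In PAP, 5 of 6 mice had more Il33 than their own CHR, the exception being mouse 3, and the mean was 2.82-fold higher (1.31 ± 0.41, adjusted p = 0.0139). The call was lost without mouse 7 (adjusted p = 0.059) or mouse 8 (adjusted p = 0.0514). Il1rl1, which encodes the IL-33 receptor ST2 of mast cells, regulatory T cells and type 2 lymphocytes, ranged from 514 to 1763 in CHR (median 769.9), from 38.8 to 346 in PAP (median 211) and from 288 to 970.3 in SCC (median 671). Every PAP library was below every CHR library, and the mean was 4.77-fold lower (-1.92 ± 0.33, adjusted p = 0.00012, lower in 6 of 6 mice). The IL-18 receptor chains Il18r1 (-0.99 ± 0.28, adjusted p = 0.00746) and Il18rap (-1.15 ± 0.32, adjusted p = 0.00608) were also lower in PAP, and Il18r1 was lower in SCC (-0.96 ± 0.28, adjusted p = 0.0135). The SCC call of Il18r1 was lost without mouse 3 (adjusted p = 0.0599). Il18, a cytokine stored as a precursor in the epidermis, was lower in SCC (859.7 to 1569 in CHR and 195 to 1051 in SCC, -1.37 ± 0.40, adjusted p = 0.0131). That call was lost without mouse 8 (adjusted p = 0.0575), and without mouse 9 Il18 also passed as lower in PAP (-1.0, adjusted p = 0.0433). The binding protein Il18bp, which neutralises IL-18, did not pass.

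Of the 6 IL-17 members, the receptor chains Il17re and Il17rc rose in PAP and Il17rd fell. Il17re, which pairs with Il17ra to bind IL-17C, ranged from 172 to 367 in CHR (median 288), from 299.6 to 1160 in PAP (median 508) and from 230.3 to 450.3 in SCC (median 326). It was higher in the PAP than in the CHR of all 6 mice, and the mean was 2.09-fold higher (0.82 ± 0.23, adjusted p = 0.00582). Il17rc, the chain that pairs with Il17ra for IL-17A and IL-17F, ranged from 1459.5 to 2365 in CHR (median 1903), from 1661 to 4879.9 in PAP (median 3675) and from 1140.2 to 3407 in SCC (median 2095). It was higher in 5 of 6 mice in PAP (1.80-fold, 0.77 ± 0.26, adjusted p = 0.0191). The call was lost without mouse 7, 8, 9 or 10 (adjusted p = 0.0528 to 0.0907). Il17re and Il17rc are neighbours on chromosome 6, at 113458484 to 113470758 and 113471427 to 113483140.

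Il17rd, which encodes Sef, an inhibitor of fibroblast growth factor signalling that also joins IL-17 receptor complexes, ranged from 239 to 480.1 in CHR (median 379), from 88.1 to 209 in PAP (median 134) and from 144 to 345 in SCC (median 269.6). All PAP libraries were below all CHR libraries (2.67-fold lower, -1.09 ± 0.19, adjusted p = 0.00013). In SCC the difference was -0.50 ± 0.19 (adjusted p = 0.0482), a call that was lost with the block (adjusted p = 0.0672) and in 13 of 16 alternatives in all, including the omission of mouse 3, 7, 8, 9 or 10. The shared chain Il17ra did not pass (-0.31 in PAP, adjusted p = 0.0854), except in the fit of the 2 groups alone (adjusted p = 0.0422) and without mouse 2 (-0.39, adjusted p = 0.0469). The IL-25 receptor Il17rb passed as higher in PAP under quantile normalization alone (0.72, adjusted p = 0.0297). Il17c was the one IL-17 ligand in the table. Its normalised read count was at most 4.65 in CHR, and it reached 114 in the SCC of mouse 9 and 16.8 in the PAP of mouse 9, with at most 5.46 in the SCC of any other mouse. Among 15 genes listed as epithelial targets of IL-17, 5 rose and 2 fell in PAP, so that 46.7% passed, against 51.5% of all genes. The subunits of calprotectin, S100a8 (log2 fold change 2.26, adjusted p = 0.0075) and S100a9 (2.40, adjusted p = 0.00597), rose. The neutrophil chemoattractant Cxcl3 (1.28, adjusted p = 0.0216), the granulocyte growth factor Csf3 (1.35, adjusted p = 0.0292) and the RNase Zc3h12a (0.96, adjusted p = 0.0268) rose with them. The iron-binding protein Lcn2 (-2.07, adjusted p = 7.47e-05) and the chemokine Ccl20 (-0.88, adjusted p = 0.046) fell.

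Both signalling chains of the type 2 receptor rose in PAP. Il4ra, the chain shared by the IL-4 and IL-13 receptors, ranged from 3809 to 6974 in CHR (median 5344), from 6214 to 16465 in PAP (median 9889) and from 5505 to 11920.3 in SCC (median 8335). The PAP values were higher in 6 of 6 mice, with a mean 1.94-fold that of CHR (0.90 ± 0.24, adjusted p = 0.00482), although the groups overlapped. Its partner Il13ra1 ranged from 4646 to 6309.7 in CHR (median 5468), from 5217 to 13057 in PAP (median 10076) and from 4679 to 11014 in SCC (median 6184). It was 1.72-fold higher in PAP (0.73 ± 0.21, adjusted p = 0.00698, higher in 5 of 6 mice). Both were called in PAP in all 16 alternatives. In SCC, neither passed against CHR in the fit of all libraries without a block, whereas Il4ra passed with mouse as a block (0.60, adjusted p = 0.0179) and in 4 other alternatives. Il4ra shares 571 exonic bases with an antisense gene, so part of its reads may belong to that gene.

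The ligand Il13 was read 0.849 to 31.7 times per library after normalisation, and Il4 was not analysed here. Il13ra2, a decoy receptor for IL-13, ranged from 40.6 to 114 in CHR, from 11.2 to 112 in PAP and from 19.7 to 279 in SCC. Both Il13 (31.7) and Il13ra2 (279) were highest in the SCC of mouse 7, and neither passed. Without mouse 7, Il13 passed as lower in PAP (-0.30, adjusted p = 0.027) and in SCC (-0.28, adjusted p = 0.0442), and in PAP it also passed in the fit of the 2 groups alone (adjusted p = 0.0238). Of 12 further genes listed as partners or targets of type 2 signals, 10 passed in PAP (83.3%, against 51.5% of all genes). Tslp, an epithelial cytokine that starts type 2 responses through Il7r and Crlf2, rose from a mean of 170.1 to 1859 (3.29, adjusted p = 0.000369), and so did the arginase Arg1 (2.18, adjusted p = 0.00193). The other 8 fell, among them the TSLP receptor chain Crlf2 (-0.60, adjusted p = 0.00891), the shared receptor chains Csf2rb (-2.01) and Csf2rb2 (-1.82) and the macrophage gene Mrc1 (-4.15). Mrc1 is also on the macrophage marker list given above.

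In the IL-6 group, 6 of 8 members were called in PAP (75.0%, against 51.5% of all genes) and 5 in SCC (62.5%, against 36.5%), with 1 riser, Il11, in each. Il6st encodes gp130, the signalling chain shared by IL-6, IL-11, LIF and oncostatin M. It ranged from 11259 to 14778 in CHR (median 11815), from 3105 to 8797 in PAP (median 6592) and from 3364 to 8060.0 in SCC (median 6277). Every lesion library was below every CHR library, with means 1.96-fold lower in PAP (-1.02 ± 0.22, adjusted p = 0.000914) and 2.10-fold lower in SCC (-1.10 ± 0.22, adjusted p = 0.00096). Il11ra1, the IL-11 receptor, ranged from 188 to 344 in CHR (median 259), from 8.39 to 116 in PAP (median 55.2) and from 71.4 to 155 in SCC (median 112). No lesion library reached the lowest CHR library (PAP -1.45 ± 0.21, adjusted p = 1.77e-05, and SCC -0.88 ± 0.21, adjusted p = 0.00316). Il11ra1 has a near-identical copy, Il11ra2, and reads that match both may have been left out.

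Il11, a cytokine of stromal and epithelial cells, rose while its receptor fell. It was weakly expressed, with 7.82 to 21.7 normalised reads in CHR (median 10.7), 9.59 to 49.0 in PAP (median 28.0) and 14.6 to 50.2 in SCC (median 28.7). It was higher in 5 of 6 mice in each lesion, with means 2.33-fold and 2.37-fold that of CHR (0.39 ± 0.14, adjusted p = 0.0298, and 0.40 ± 0.14, adjusted p = 0.0342). The log2 values are smaller than the fold of means because the deposited scale compresses low counts. Leaving out mouse 2, 3, 7, 8 or 10 ended the PAP call (adjusted p = 0.0504 to 0.123), and leaving out mouse 3, 7, 8 or 10 ended the SCC call (adjusted p = 0.073 to 0.121). Il6 itself had 10.6 to 40.8 normalised reads in CHR, 6.89 to 14.7 in PAP and 10.4 to 65.5 in SCC and did not pass. It passed as higher in SCC than in CHR under quantile normalization (0.51, adjusted p = 0.0161), and as higher in SCC than in PAP without mouse 10 (0.64, adjusted p = 0.014) or its SCC alone (0.61, adjusted p = 0.0105). Its receptor chain Il6ra did not pass either, except as lower in SCC than in CHR in the fit of the 2 groups alone (adjusted p = 0.0361), without mouse 2 (adjusted p = 0.0389) and without the SCC of mouse 10 (adjusted p = 0.0489).

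The receptors for IL-27 and IL-31 were lower in both lesions. Il27ra, a receptor of T and natural killer cells, ranged from 129.9 to 221 in CHR (median 174), from 6.29 to 34.8 in PAP (median 31.8) and from 35.8 to 148 in SCC (median 56.7). The 3 groups were ordered CHR, SCC, PAP, and CHR and SCC overlapped only through the SCC of mouse 7. The mean was 6.16-fold lower in PAP than in CHR (-1.46 ± 0.17, adjusted p = 2.5e-06) and 2.44-fold lower in SCC (-0.86 ± 0.17, adjusted p = 0.00093). Its ligand subunit Il27 was at 2.88 to 38.5 in CHR, 0.849 to 11.6 in PAP and 3.58 to 19.7 in SCC. It was lower in PAP (-0.43 ± 0.15, adjusted p = 0.0232), and under quantile normalization the sign of that difference turned. Without mouse 7 or 8 the call was lost (adjusted p = 0.0705 and 0.0805). Il31ra, the itch receptor chain for IL-31, fell from a mean of 42.3 to 8.69 in PAP (-0.77 ± 0.16, adjusted p = 0.00071) and to 14.8 in SCC (-0.62 ± 0.16, adjusted p = 0.00646). It ranged from 28.8 to 62.5 in CHR, from 3.15 to 18.8 in PAP and from 2.63 to 40.4 in SCC. Both calls of Il31ra were lost under quantile normalization (-0.24, adjusted p = 0.219, in PAP and -0.36, adjusted p = 0.0865, in SCC). Among 10 IL-6 family genes without an Il symbol, 3 passed in PAP (30.0%, against 51.5% of all genes). Of these, the ligand Clcf1 rose (means of 145, 683 and 498 in CHR, PAP and SCC, 1.69 in PAP, adjusted p = 2.79e-05), while the receptor chain Lifr (-1.94, adjusted p = 0.00117) and the IL-27 subunit Ebi3 (-0.85, adjusted p = 0.000111) fell.

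The largest rises of any member were those of Il24 and Il19, cytokines of the IL-20 subfamily that act back on keratinocytes. Il24 ranged from 5.76 to 279 normalised reads in CHR (median 35.5), from 331 to 1037 in PAP (median 596) and from 96.6 to 1288 in SCC (median 504). The highest CHR library, that of mouse 3, lay below the lowest PAP library, and 5 of the 6 SCC libraries also lay above it. The means were 8.34-fold higher in PAP (2.53 ± 0.45, adjusted p = 0.000155) and 7.72-fold higher in SCC (2.24 ± 0.45, adjusted p = 0.000945), in 6 of 6 mice each. Il19 ranged from 1.92 to 121 in CHR (median 25.4), from 61.1 to 760.2 in PAP (median 310.2) and from 32.4 to 1293 in SCC (median 324). It was 8.61-fold higher in PAP (1.95 ± 0.53, adjusted p = 0.0051, 6 of 6 mice) and 10.7-fold higher in SCC (1.96 ± 0.53, adjusted p = 0.0081, 5 of 6 mice), the exception in SCC being mouse 3, and the groups overlapped. Both genes were called in both lesions in all 16 alternatives. Il24, Il20, Il19 and Il10 are neighbours on chromosome 1, from 130882074 to 131024974. Il20, which lies between the 2 that rose, ranged from 6.97 to 35.6 in CHR, from 2.10 to 62.7 in PAP and from 3.27 to 35.8 in SCC, and did not pass. Il10 passed as higher in PAP under quantile normalization alone (0.79, adjusted p = 0.0347).

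**Figure D4:**
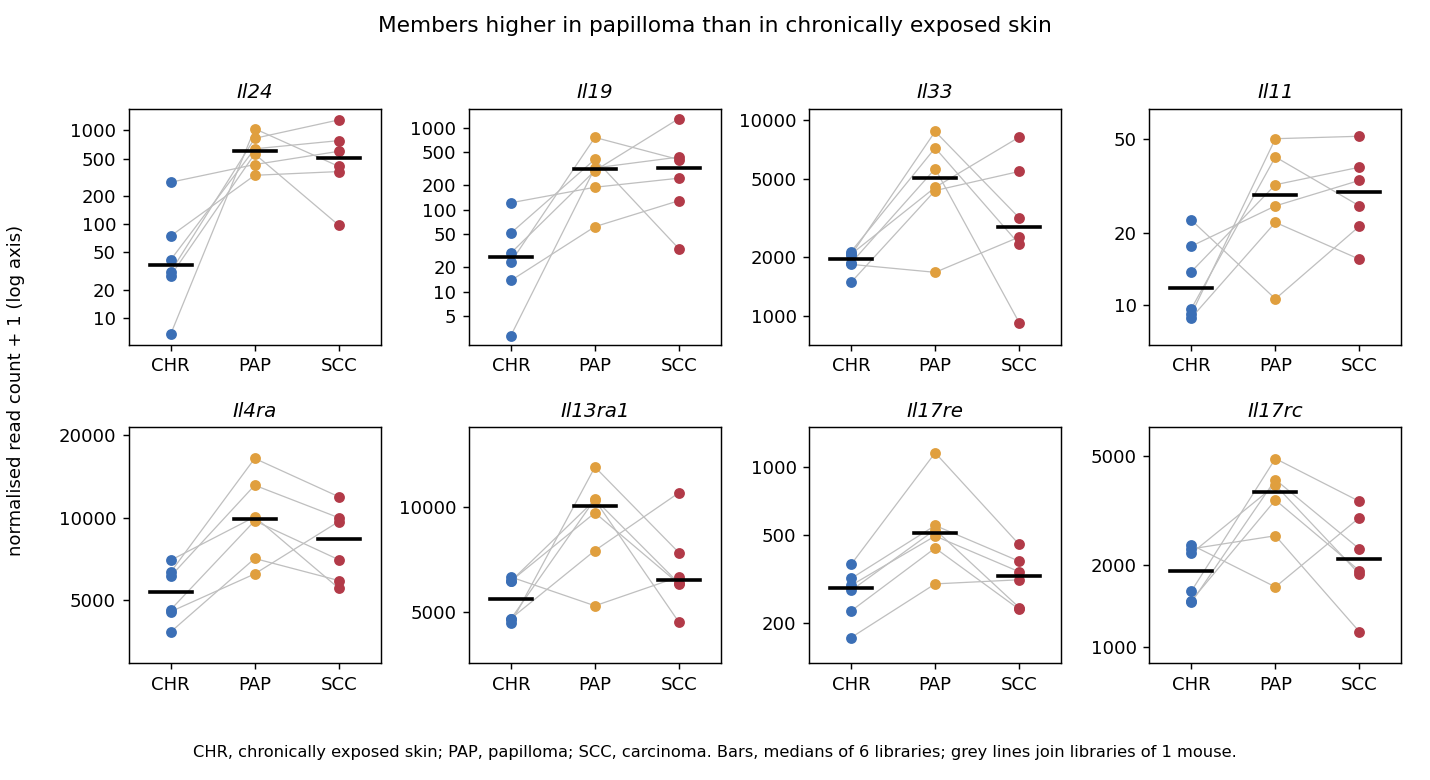
Normalised read counts plus 1 (log y axis) in CHR, PAP and SCC (x axis) for the 8 members called higher in PAP than in CHR, with 1 point per library, bars at medians of 6 libraries and grey lines joining the libraries of 1 mouse. Il24 is the one member here with every PAP point above every CHR point. Il24, Il33, Il4ra, Il13ra1, Il17re and Il17rc have lower medians in SCC than in PAP, a difference that passed for none of them in the fit without a block.

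No receptor chain of the same cytokines was called higher. Il20rb, the chain shared by the receptors for IL-19, IL-20 and IL-24, ranged from 1131 to 2286 in CHR (median 1486), from 666 to 1879 in PAP (median 1195) and from 448 to 1119 in SCC (median 583). Every SCC library was below every CHR library (2.31-fold lower, -1.16 ± 0.28, adjusted p = 0.00348). Its partner Il20ra ranged from 285 to 815 in CHR, from 219 to 3306 in PAP and from 135 to 1357 in SCC and did not pass against CHR (adjusted p = 0.351 in PAP and 0.519 in SCC). Without mouse 10 it was lower in SCC than in PAP (-1.79, adjusted p = 0.0173). The partner for IL-22 and IL-24, Il22ra1, did not pass (adjusted p = 0.911 and 0.166). The IL-10 receptor chain of leukocytes, Il10ra, ranged from 849 to 1721 in CHR (median 1541), from 47.2 to 584 in PAP (median 361) and from 267 to 1783 in SCC (median 809). No PAP library overlapped CHR (3.95-fold lower, -1.92 ± 0.40, adjusted p = 0.000668). In SCC, Il10ra passed only with mouse as a block (-0.77, adjusted p = 0.0288) among the settings tried. Il10rb, the partner chain for IL-10 and IL-22, ranged from 653 to 1047 in CHR (median 883), from 168 to 656 in PAP (median 325) and from 257 to 731 in SCC (median 384). It was lower in PAP (-1.27 ± 0.23, adjusted p = 0.000214) and in SCC (-0.95 ± 0.23, adjusted p = 0.00413) in 6 of 6 mice each. Il10rb shares 569 exonic bases with another gene model.

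In the IL-12/IL-23 group, whose members direct T helper cells, 4 of 5 fell in PAP and 3 in SCC (80.0% and 60.0%, against 28.7% and 21.4% of all genes). All 4 PAP calls were lost under quantile normalization, with log2 fold changes of -0.19 for Il12b, -0.39 for Il12rb2, -0.18 for Il23r and -0.06 for Il12rb1 (adjusted p = 0.125 to 0.773). Il12b, the subunit shared by IL-12 and IL-23, ranged from 14.4 to 63.9 in CHR, from 1.05 to 9.48 in PAP and from 0.0 to 13.7 in SCC, with no overlap between CHR and either lesion (-0.70 ± 0.15, adjusted p = 0.00104, and -0.69 ± 0.15, adjusted p = 0.0023). The receptor chains Il12rb2 (-0.88), Il23r (-0.71) and Il12rb1 (-0.59) were lower in PAP. In SCC, Il12rb2 (-0.81, adjusted p = 0.00422) and Il23r (-0.57, adjusted p = 0.0067) were lower, and the SCC call of Il23r was lost under quantile normalization (-0.30, adjusted p = 0.0768). Il12rb2 shares 1519 exonic bases with Serbp1. The IL-23 subunit Il23a moved the other way, from 5.20 to 31.7 in CHR (median 18.4) to 16.7 to 373 in PAP (median 38.4) and 41.2 to 119.7 in SCC (median 58.8). All 6 SCC libraries lay above all CHR libraries, a pattern that 8.57% of all genes showed, but the adjusted p was 0.0566 in PAP and 0.0612 in SCC. On log2(normalised read count + 10), Il23a passed in both (1.31, adjusted p = 0.0441, and 1.50, adjusted p = 0.033). It also passed in both on log2(normalised read count + 1), under quantile normalization (adjusted p = 0.00145 and 0.00894) and in voom with the block (adjusted p = 0.0267 and 0.0472). In SCC it passed as well under upper-quartile scaling, in the fit of the 2 groups alone (adjusted p = 0.00256) and without mouse 2. In PAP it passed without mouse 7 (adjusted p = 0.0441).

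All 9 members of the common gamma chain group had negative log2 fold changes in PAP, and 5 passed in each lesion. This is 55.6%, against 51.5% of all genes called and 28.7% called lower in PAP, and 36.5% and 21.4% in SCC. Il7r, the IL-7 receptor of T cells and innate lymphoid cells and also a chain of the TSLP receptor, was the largest fall of any member. It ranged from 1343 to 4132 in CHR (median 2498), from 80.8 to 445 in PAP (median 260.1) and from 292 to 1424 in SCC (median 414). No PAP library came near CHR, and 1 SCC library, that of mouse 7, lay above the lowest CHR library. The mean was 9.75-fold lower in PAP (-2.97 ± 0.36, adjusted p = 3.4e-06) and 4.15-fold lower in SCC (-2.01 ± 0.36, adjusted p = 0.000362). Its ligand Il7 ranged from 87.4 to 157 in CHR, from 3.15 to 61.1 in PAP and from 15.2 to 77.0 in SCC (-1.15 ± 0.21, adjusted p = 0.000221, and -0.75 ± 0.21, adjusted p = 0.0105). The SCC call of Il7 was lost in voom with the block (adjusted p = 0.0921). Il15, a growth factor of memory T and natural killer cells, ranged from 201 to 282 in CHR (median 246), from 11.5 to 104 in PAP (median 60.0) and from 52.8 to 119 in SCC (median 81.2), with no overlap with CHR in either lesion (-1.38 ± 0.19, adjusted p = 1.33e-05, and -1.06 ± 0.19, adjusted p = 0.000382). The receptor chains Il2rb (-1.28) and Il9r (-0.63) also fell in PAP. In SCC the call of Il2rb (-0.73, adjusted p = 0.0451) was lost in 10 of 16 alternatives (adjusted p = 0.0532 to 0.208), among them the omission of mouse 2, 3, 8 or 9 or of the SCC of mouse 10. Il9r lost its calls in PAP and SCC under quantile normalization (-0.11, adjusted p = 0.491, and -0.27, adjusted p = 0.111). Il2ra, Il2rg, Il15ra and Il21r did not pass, but Il2ra and Il21r passed in PAP with mouse as a block (adjusted p = 0.0307 and 0.0223). Il2ra also passed in PAP in the fit of the 2 groups alone (adjusted p = 0.0308) and without mouse 9 (adjusted p = 0.0372). Il21r also passed in PAP without mouse 10 (adjusted p = 0.0405). Il2rg shares 728 exonic bases with another gene model.

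Among the remaining members, Il16, whose precursor is made by lymphocytes and other leukocytes, ranged from 698 to 1029 in CHR (median 849), from 11.5 to 156 in PAP (median 106) and from 86.8 to 553 in SCC (median 266). The mean was 8.66-fold lower in PAP (-2.57 ± 0.30, adjusted p = 2.39e-06) and 2.78-fold lower in SCC (-1.41 ± 0.30, adjusted p = 0.00155), with no overlap in either. Il16 shares 1202 exonic bases with Stard5. Il34, a keratinocyte ligand of the receptor Csf1r on which Langerhans cells depend, ranged from 249 to 374 in CHR, from 13.6 to 233 in PAP and from 73.4 to 253 in SCC (-1.22 ± 0.26, adjusted p = 0.000895, and -0.86 ± 0.26, adjusted p = 0.0165). Leaving out mouse 3 or 9 ended its SCC call (adjusted p = 0.0597 and 0.0638), as did log2(normalised read count + 1) (adjusted p = 0.0703). Il3ra fell in PAP (-1.10 ± 0.18, adjusted p = 7.38e-05). In SCC its call (-0.48 ± 0.18, adjusted p = 0.0442) was lost in 12 of 16 alternatives. Il4i1 (-0.43, adjusted p = 0.0326 in SCC) shares 3423 exonic bases with neighbouring genes and is uncertain. Its call was lost in 6 of 16 alternatives (adjusted p = 0.0589 to 0.289), namely without mouse 2, 3, 8 or 10, without the SCC of mouse 10 and under quantile normalization. In PAP it passed in 4 alternatives, among them the block (-0.36, adjusted p = 0.0363).

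SCC and PAP differed in few members. Il1r1, Il1rl1, Il27ra and Il16 were higher in SCC than in PAP, in 6 of 6 mice each. The log2 fold changes were 1.18 ± 0.25 for Il1r1 (adjusted p = 0.0238), 1.48 ± 0.33 for Il1rl1 (adjusted p = 0.0245), 1.16 ± 0.30 for Il16 (adjusted p = 0.0378) and 0.60 ± 0.17 for Il27ra (adjusted p = 0.0483). Il27ra had no overlap between the groups (0.255% of all genes were higher in SCC without overlap), and in the other 3 the SCC of mouse 10 was the one SCC library below the highest PAP library. Of the members 6.25% were called higher, close to the share of all genes. With mouse as a block 9 members passed, the added ones being Il10ra, Il18rap, Il21r and Il3ra, higher in SCC, and Il17re, lower (-0.63, adjusted p = 0.0203). The block gave 1430 calls over all genes, against 810 without it. With voom on the recovered reads 0 passed (17 at an unadjusted p under 0.05, against 15 in limma on the deposited values). In that setting 0 of all 14521 genes passed as well. Without mouse 3, 7 or 8 the count of members was also 0, with 11 to 15 at an unadjusted p under 0.05, and 0 of all genes passed. Without mouse 10, 14 members and 2123 of all genes passed. Leaving out the SCC of mouse 10 alone gave 13 members, with 10 higher and 3 lower (Il13ra1, Il17re and Il20rb), and 2458 of all genes. Of the macrophage markers, 7 of 11 were also higher in SCC than in PAP, and so were 8 of 10 skeletal muscle markers (median log2 fold change 2.83), 4 of 6 endothelial markers and 1 of 8 fibroblast markers (median 1.65). No T cell (0 of 12), mast cell (0 of 8), dendritic cell (0 of 7) or neutrophil (0 of 8) marker passed, and 3 of 10 keratinocyte markers were lower. The part of these cells in the 4 calls was not tested.

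**Figure D5:**
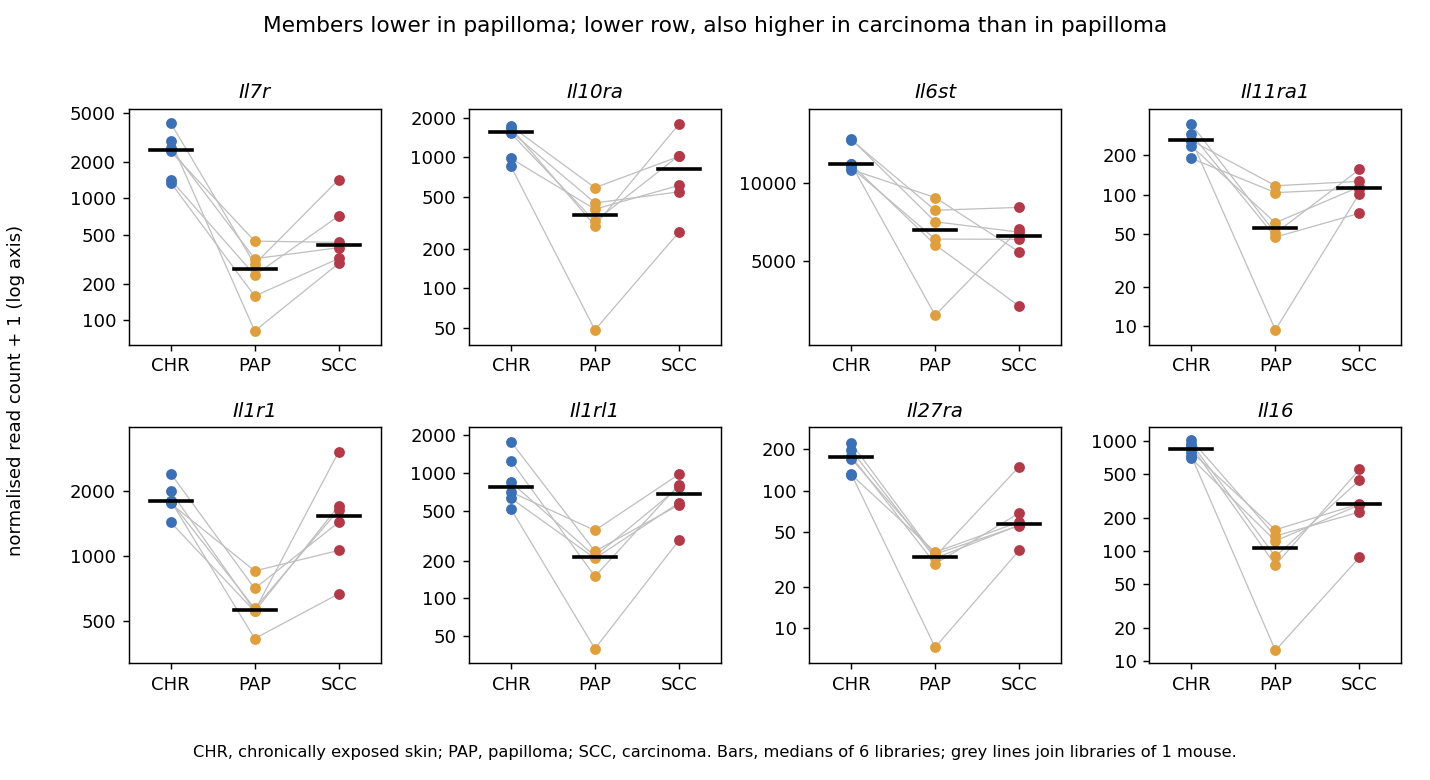
Normalised read counts plus 1 (log y axis) in CHR, PAP and SCC (x axis) for 8 members called lower in PAP than in CHR, with 1 point per library, bars at medians of 6 libraries and grey lines joining the libraries of 1 mouse. The 4 members of the lower row, Il1r1, Il1rl1, Il27ra and Il16, were also called higher in SCC than in PAP. The PAP of mouse 10 is the lowest point in every panel.

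Set side by side, the 5 groups differed in how many members moved and which way. In PAP versus CHR, the IL-1/IL-36 group had 0 higher and 3 lower of 12, the IL-17 group 2 higher and 1 lower of 6, the IL-4/IL-13 group 2 higher and 0 lower of 4, the IL-6 group 1 higher and 5 lower of 8 and the IL-20/IL-10 group 2 higher and 2 lower of 10, where 22.8% of all genes were higher and 28.7% lower. Their median log2 fold changes were -0.27, 0.17, 0.24, -0.60 and -0.07, against 0.0 over all genes. In SCC versus CHR the counts higher and lower were 0 and 2, 0 and 1, 0 and 0, 1 and 4, and 2 and 2 in the same order (15.1% of all genes higher and 21.4% lower), with medians of -0.30, 0.04, 0.08, -0.58 and -0.39, against -0.02 over all genes. In SCC versus PAP, 1 member passed in each of the IL-1/IL-36 and IL-6 groups and 0 in the other 3, where 3 members of the IL-17 group, 0 of the IL-4/IL-13 group and 2 of the IL-20/IL-10 group had an unadjusted p under 0.05. No difference between groups of genes was tested.

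Per kilobase of exon, the order of the members changed between tissues. In CHR the highest mean normalised read counts per kilobase were those of Il1f5 (1771), Il1f9 (1504), Il13ra1 (1474), Il18 (1178) and Il6st (1138). In PAP they were those of Il13ra1 (2537), Il1f9 (2377), Il33 (1855), Il4ra (1740.1) and Il17rc (1281), and in SCC those of Il1f9 (2104), Il1f6 (1909.7), Il13ra1 (1863), Il4ra (1387) and Il33 (1302). The place of Il1f6 in SCC rested on the library of mouse 9. Il24 moved from place 37 of 64 in CHR to 14 in PAP and 12 in SCC, and Il7r from place 12 to 33 and 26. At the low end, 11 members had means under 50 normalised reads in all 3 groups.

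Genes downstream of the receptors were read from lists. Of 15 Janus kinase, STAT and SOCS genes, 2 rose and 5 fell in PAP, so that 46.7% passed, against 51.5% of all genes. Socs3, a feedback inhibitor induced by gp130 and IL-10 family cytokines, rose in PAP (means of 1203 and 2380.3, 0.96 ± 0.26, adjusted p = 0.0047) and in SCC (mean 2488, 0.89 ± 0.26, adjusted p = 0.0119). Stat6, the factor used by Il4ra, rose in PAP (0.39 ± 0.13, adjusted p = 0.0156, higher in 6 of 6 mice). Stat5a (-0.75) and Stat5b (-0.73), used by common gamma chain and growth hormone receptors, fell in PAP and in SCC (-0.65 and -0.51). Of 18 genes of IL-1 receptor signalling, 1 rose and 3 fell in PAP (22.2% called). Nfkb1 rose (0.54 ± 0.14, adjusted p = 0.00378), and Irak3, an inhibitory kinase found mainly in macrophages, fell from a mean of 754 to 229 (-1.54 ± 0.24, adjusted p = 4.95e-05).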

How the data were processed

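Messenger RNA of 18 tissue samples was sequenced, and groups and mouse numbers were taken from the sample titles. The authors aligned reads to mm10, counted them per gene with HTSeq, scaled the counts and applied a variance-stabilising transformation. The deposited values are rounded scores on the linear scale of that transformation, in which 0 reads appear as 39. Per their methods, transformed values were also adjusted gene by gene so that batches had equal medians. Whether the deposited values carry this step, and which samples formed a batch, is not given in the sources used here, so its effect on the values was not tested. Annotation release, software versions and strandedness are not given in the sources used here. The transformation was inverted with a zero level of 39.13, which gave whole reads for 98.77% of values (100% of those under 100), and size factors of 0.835 to 1.178. Normalised read counts are these reads divided by the size factor. Of 14542 entries, 21 without a gene symbol (at most 0.236% of a library) were left out, and 0 columns were unmapped.

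Tests used limma 3.58.1 (R 4.3.3) on log2(deposited value + 1) with 1 coefficient per group, all 18 libraries together and Benjamini-Hochberg adjustment over 14521 genes, at a threshold of 0.05. The script was tested on simulated data. Fold changes on this scale understate changes of low genes. Because deposited values were not counts, no count model was used. Alternatives were mouse as a block, voom on recovered reads, pseudocounts of 1 and 10 on normalised counts, a filter of 10 reads in 6 libraries, upper-quartile scaling, quantile normalization, fits of the compared groups alone and omission of each mouse. The omission of the SCC of mouse 10 and voom with the block were added after the data had been seen. Same-numbered samples come from the same animal. Their deviations from the group means correlated at -0.245 to 0.507, above 0.1 in 9 of 18 pairs. The members, groups, gene lists and marker lists were chosen with earlier results of these data known. All members may be named. The range in each group is given for members of the 5 compared groups that passed any test, for the 8 largest calls against CHR and for each call between SCC and PAP. Positions matched GENCODE M21 for 64 of 64 members. The limma fit without a block treats libraries of the same mouse as independent. Its p-values measure the spread between libraries within groups, all from littermates of 1 stock.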

Additional observations from a re-analysis of the deposited data

Results flagged for a closer look

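Of 192 groups of 6 libraries (64 members in 3 tissues), 12 held a library farther from the rest than Dixon's test allows at its 95% critical value on log2(deposited value + 1). Chance flags about 5% of groups. Values are normalised read counts.

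Libraries of mouse 10 held 6 of the 12. In the PAP of mouse 10, Il10ra was lowest at 47.2 (the others 299 to 584) and Il27ra was lowest at 6.29 (the others 28.4 to 34.8). In the CHR of mouse 10, Il12rb2 was highest at 278 (the others 105 to 137), Il22ra2 was highest at 72.0 (the others 4.65 to 13.9) and Il21r was lowest at 46.1 (the others 138 to 231). Many marker sums were also lowest among PAP libraries in the PAP of mouse 10. These were the sums of T cells (370.2), macrophages (2265), mast cells (261), dendritic cells (147) and neutrophils (198). Fibroblast (5495.5), endothelial (2271), fat (1628) and sebaceous gland (104) sums were lowest there too. In the CHR of mouse 10, T cell (3093), mast cell (6752), fat (8474) and endothelial (3844) sums were lowest and the sebaceous gland sum (19448) was highest. The part of these cells in the members' values was not tested. In the SCC of mouse 10, Il20 was highest at 35.8 (the others 3.27 to 11.1). Among SCC libraries, the sums of T cells (1385), macrophages (6539), mast cells (1813) and dendritic cells (605) were lowest there. Skeletal muscle (103), fibroblast (17963) and endothelial (4022) sums were lowest there as well, whereas neutrophil, fat, sebaceous gland and keratinocyte sums were not. The part of these cells in the members' values of this library was not tested.

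In the SCC of mouse 7, Il13 was highest at 31.7 (the others 0.875 to 5.37) and so was its decoy receptor Il13ra2 at 279 (the others 19.7 to 55.7). Among SCC libraries, the summed markers of macrophages (74598), T cells (3883), neutrophils (2018), dendritic cells (5146) and endothelium (6785) were also highest there. Keratinocyte (229373), fat (1708) and sebaceous gland (77.5) sums were lowest there, and the part of these cells was not tested. In mouse 9, Il17c was highest in the PAP at 16.8 (the others 0.849 to 3.45) and in the SCC at 114 (the others 0.875 to 5.46). In the PAP of mouse 2, Il1rap was highest at 4097 (the others 1556 to 2236) and Il6ra was lowest at 486 (the others 1027 to 1570.3).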

How the results depend on the processing

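Of 34 calls in PAP versus CHR, 22 were kept in all 16 alternatives, as were 13 of 26 in SCC versus CHR and 0 of 4 in SCC versus PAP. The shares kept over all genes were not counted. In SCC versus PAP some alternatives called 0 of all genes, so no call of any gene could be kept in all of them. Without 1 mouse, 28 to 36 members passed in PAP versus CHR (5 to 8 higher, with 5 without mouse 8), 19 to 26 in SCC versus CHR and 0 to 14 in SCC versus PAP (0 to 10 higher and 0 to 4 lower). The counts over all genes were 6423 to 7125, 3909 to 5047 and 0 to 2123 in the same order. In SCC versus CHR, 5 members were higher, not 3, under upper-quartile scaling, quantile normalization, the fit of the 2 groups alone and voom with the block, and 15 were lower, not 23, under quantile normalization. In these 4 settings, 49.4%, 57.4%, 42% and 45.4% of the calls over all genes were higher, against 41.4% in the fit of all libraries. In SCC versus PAP, 0 members passed under voom, upper-quartile scaling and the fit of the 2 groups alone, and 0 of all genes passed in each of these. On log2(normalised read count + 1), 2 members (both higher) and 646 of all genes passed. Without the SCC of mouse 10, 13 members (10 higher and 3 lower) and 2458 of all genes passed. The fit of all libraries called 810 of all genes.

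With mouse as a replicate block for the pairing, 9 members passed in SCC versus PAP (8 higher and 1 lower), and voom with the block gave 5 (1 lower). Over all genes these settings called 1430 and 854. The block ended the calls of Il1f10 and Il1f5 in PAP versus CHR and of Il17rd in SCC versus CHR. It added Il21r, Il2ra and Il4i1 in PAP versus CHR and Il10ra, Il12rb1 and Il4ra in SCC versus CHR, and changed no other call against CHR.

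Quantile normalization moved the median of all genes in PAP versus CHR from 0.001 to 0.165 and the share of members' calls that were higher from 23.5% to 37.9% (SCC versus CHR, 11.5% to 25.0%). The share over the calls of all genes moved too, from 44.3% to 62.4% in PAP versus CHR and from 41.4% to 57.4% in SCC versus CHR. Under it, the PAP differences of Il1f10 (0.06) and Il27 (0.05) turned in sign. It ended 8 calls of members in PAP versus CHR (Il12b, Il12rb1, Il12rb2, Il1f10, Il23r, Il27, Il31ra and Il9r) and 8 in SCC versus CHR (Il17rd, Il1f10, Il23r, Il2rb, Il31ra, Il3ra, Il4i1 and Il9r). The cause was not tested. At the depths here, 11 members with means under 50 normalised reads in all groups are the least precise.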
